A study of Mus musculus with 8 samples.

Results

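The 34 genes described here encode transcription factors that build the embryo, and their promoters are textbook targets of the Polycomb complexes in cells that do not use them. They were taken by name from a list: 3 LIM homeobox genes (Lhx1, Lhx2, Lhx9), 3 forkhead genes (Foxa1, Foxa2, Foxd3), 4 T-box genes (Eomes, T, Tbx3, Tbx5), 4 Dlx genes (Dlx1, Dlx2, Dlx3, Dlx5), the Nkx genes Nkx2-2, Nkx2-5 and Nkx6-1, the homeobox genes Six2, Otx2 and Irx3, 4 Pax genes (Pax2, Pax3, Pax6, Pax7), 3 Sox genes (Sox1, Sox2, Sox17), Gata4 and Gata6, the helix-loop-helix genes Olig2, Neurog2 and Neurod1, and the zinc finger genes Wt1 and Insm1. All 34 of 34 had a probe on the array, among 20660 genes that could be named.

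RNA was measured on 8 one-colour Agilent arrays of mouse bone marrow LSK cells, which lack lineage markers, carry c-Kit and Sca-1, and include the blood stem cells and early progenitors. Donor CD45.2+ stem cells on C57BL/6 background, all with Cre-ERT and with Ezh2 either intact (Ezh2wt/wt) or floxed (Ezh2flox/flox), received a retrovirus with RUNX1S291fs, a mutant of the blood transcription factor RUNX1, or an empty one. They were grafted with CD45.1+ wild-type marrow into lethally irradiated mice, and Ezh2 was then deleted. Each of the 8 groups had 1 array, so no group has a replicate of its own. At month 4 after transplantation, CD45.2+ cells pooled from 2 to 4 mice gave the arrays WT (empty virus, Ezh2 intact), Ezh2_deleted (empty virus, Ezh2Δ/Δ), RUNX1_mutant (RUNX1S291fs, Ezh2 intact) and Double_mutant (RUNX1S291fs/Ezh2Δ/Δ). Cells of single moribund RUNX1S291fs/Ezh2Δ/Δ mice gave Double_MDS, from a mouse with myelodysplastic syndrome (MDS), and Double_MDS_ML, from a mouse with MDS and myeloid leukemia; their age was not given in the sources used here. CD45.1_in_RUNX1_mutant and CD45.1_in_double_mutant are month 4 wild-type competitor LSK cells from recipients of RUNX1_mutant and Double_mutant grafts, and carried neither virus nor Cre-ERT per the design. The promoter driving Cre-ERT and the agent that activated it were not given in the sources used here.

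EZH2 is the main catalytic subunit of Polycomb repressive complex 2 (PRC2), which methylates lysine 27 of histone H3. That mark recruits or stabilises silencing by Polycomb repressive complex 1 (PRC1), and it covers the CpG-rich promoters of developmental regulators in stem cells and differentiated cells alike. EZH1, the related enzyme, can keep part of the mark in blood stem cells that lack EZH2. The question put to the arrays was which of the 34 genes gave signal, on which arrays, and whether they did so where Ezh2 was deleted.

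RefSeq promoter windows (assembly GRCm38.p6, 250 bases before to 50 after each start) were at hand for 24 of the 34 genes, in 33 windows. Gata6, Sox17, Dlx3, Pax3, Dlx5, Tbx3, Tbx5, Insm1, Gata4 and Wt1 were not in that table. CG dinucleotides, the feature shared by Polycomb target promoters, numbered 6 to 40 in a window with a median of 18, against a median of 7 over all 32851 windows. At least 10 stood in 84.8% of the members' windows and in 43.5% of all windows. The median was 20 over the 16 windows of genes detected on any array and 18 over the 17 windows of genes detected on none, while at least 10 CG stood in 75% and 94.1% of them. The letters TGTGGT, the core of a RUNX motif, were found on either strand in 6.06% of the members' windows (1 each of Neurog2 and Pax2) and in 16.8% of all windows, which describes these letters in these windows and nothing of RUNX1 binding. The windows of 4 genes are printed to show the shared sequence of genes with unlike signals: Lhx2 (detected on the Ezh2_deleted array alone, 34 CG, chr2:38339031-38339330, plus strand, 1 of its 2 windows), Foxa1 (detected with and without the deletion, 26 CG, chr12:57546062-57546361, minus strand), Nkx2-2 (detected on every array, 17 CG, chr2:147186353-147186652, minus strand) and Sox2 (detected on none, 27 CG, chr3:34649745-34650044, plus strand). Capitals mark CG.
Lhx2: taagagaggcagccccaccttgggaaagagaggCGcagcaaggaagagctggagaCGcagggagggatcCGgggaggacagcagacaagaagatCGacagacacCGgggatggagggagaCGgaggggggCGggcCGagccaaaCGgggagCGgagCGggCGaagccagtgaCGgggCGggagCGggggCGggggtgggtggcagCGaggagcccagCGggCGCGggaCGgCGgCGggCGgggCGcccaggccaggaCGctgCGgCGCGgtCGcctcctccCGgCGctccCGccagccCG
Foxa1: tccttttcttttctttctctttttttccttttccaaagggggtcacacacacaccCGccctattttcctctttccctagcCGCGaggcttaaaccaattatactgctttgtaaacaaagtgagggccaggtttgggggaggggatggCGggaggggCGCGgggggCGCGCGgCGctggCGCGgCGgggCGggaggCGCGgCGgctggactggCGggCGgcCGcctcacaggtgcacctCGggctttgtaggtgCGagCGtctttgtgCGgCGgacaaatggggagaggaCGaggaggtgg
Nkx2-2: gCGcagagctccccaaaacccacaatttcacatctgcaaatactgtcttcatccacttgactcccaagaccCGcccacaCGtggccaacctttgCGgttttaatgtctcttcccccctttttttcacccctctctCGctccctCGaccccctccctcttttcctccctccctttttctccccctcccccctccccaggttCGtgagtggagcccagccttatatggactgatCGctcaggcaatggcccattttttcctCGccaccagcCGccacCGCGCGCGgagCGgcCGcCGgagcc
Sox2: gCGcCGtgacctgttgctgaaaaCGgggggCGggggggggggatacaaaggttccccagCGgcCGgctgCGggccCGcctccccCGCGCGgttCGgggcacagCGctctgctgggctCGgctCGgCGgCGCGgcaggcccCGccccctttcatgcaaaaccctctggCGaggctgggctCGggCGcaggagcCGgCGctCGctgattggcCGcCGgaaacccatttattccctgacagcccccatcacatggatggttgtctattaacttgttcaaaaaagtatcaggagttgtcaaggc

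Most of the 34 genes were not well above background on any array. Of the 34, 20 were well above background (the flag the scanner software sets for each spot) on 0 of 8 arrays, a state shared by 27.3% of all named genes. Another 10 were well above background on 1 to 7 arrays, and 4 (Dlx3, Nkx2-2, Sox1 and Insm1) on all 8, against 54.7% of all named genes. Levels are log2 values relative to the 75th percentile of each array's processed signal, and a probe at that percentile has level 0. Dlx3 and Insm1 were the only members to exceed 0 on any array, and Dlx3 did so on all 8. In such bulk samples, fewer cells that make an RNA and less RNA in each cell cannot be told apart.

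**Figure D1:**
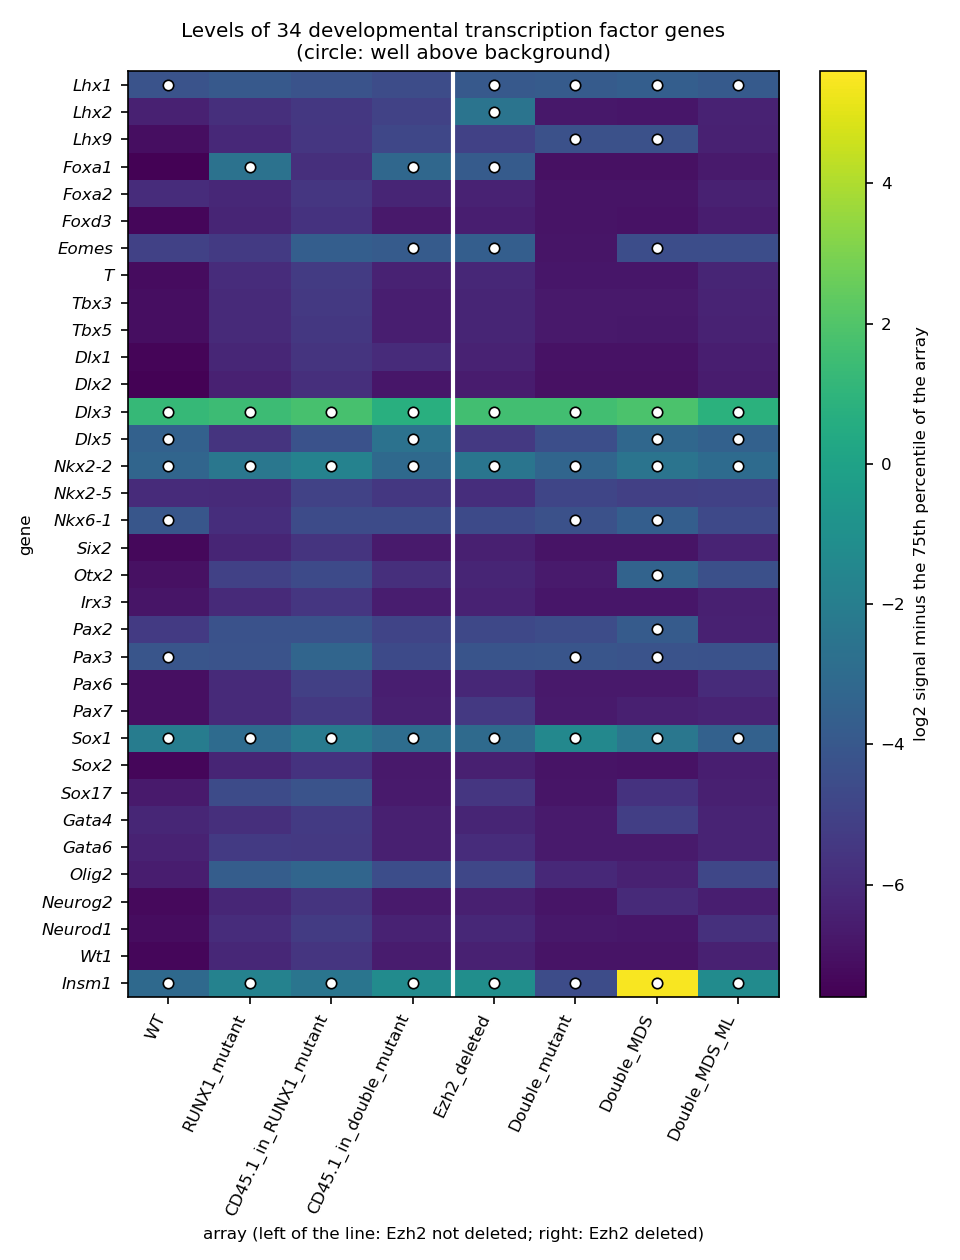
Levels of the 34 genes (vertical axis, grouped by family) on the 8 arrays (horizontal axis, Ezh2 intact left of the line and deleted right of it), as log2 relative to each array's 75th percentile, in colour. Circles mark values well above background: 20 genes carry none and 4 carry one on every array.

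The members detected on each array were counted next. On the arrays with Ezh2 intact, 8 of 34 were well above background on WT, 7 on CD45.1_in_double_mutant, 5 on RUNX1_mutant and 4 on CD45.1_in_RUNX1_mutant. With Ezh2 deleted the counts were 8 on Ezh2_deleted, 8 on Double_mutant, 12 on Double_MDS and 6 on Double_MDS_ML. The ranges overlapped, and WT equalled 2 of the 4 deleted arrays. Over all named genes the share well above background ran from 58.3% on CD45.1_in_RUNX1_mutant to 66.5% on WT. Sensitivity differed between arrays: the lowest level well above background was -3.48 on CD45.1_in_RUNX1_mutant and -5.19 on WT, and it was -4.98 on Double_MDS. With that highest floor of -3.48 applied to every array, the counts were 4 on WT, 5 on RUNX1_mutant, 6 on CD45.1_in_double_mutant and 4 on CD45.1_in_RUNX1_mutant, and 5 on Ezh2_deleted, 3 on Double_mutant, 6 on Double_MDS and 4 on Double_MDS_ML.

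**Figure D2:**
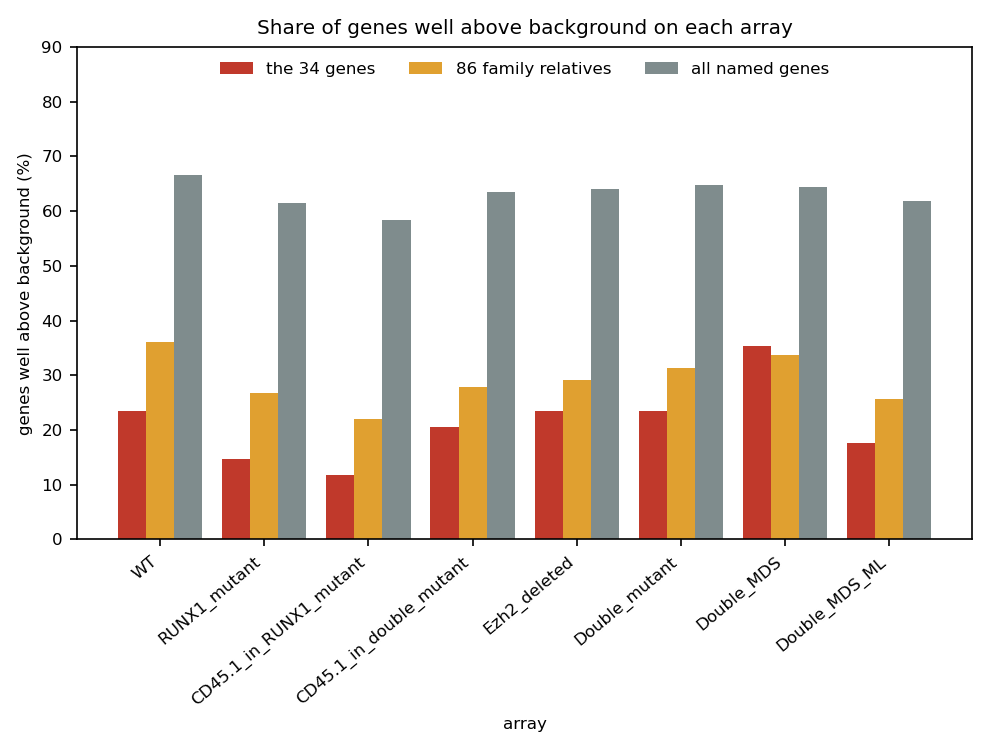
Share of genes well above background (vertical axis, %) on each array (horizontal axis), for the 34 members, 86 related genes and all named genes. The members' bars lie between 11.8% and 35.3%, beneath all named genes on every array, and the tallest is Double_MDS.

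The pattern asked about was detection on at least 1 of the 4 Ezh2-deleted arrays and on 0 of the 4 others. It held for 4 of 34 members, Lhx2, Lhx9, Otx2 and Pax2 (11.8%), against 3.99% of all named genes. The reverse pattern held for 0 members and for 2.03% of all named genes. No member was detected on all 4 deleted arrays and none of the others, and 3 of the 4 genes rested on 1 array. The count depended on single arrays: it was 2 without Double_MDS and 7 without WT, and the reverse count became 1 without Ezh2_deleted. With 1 level floor for all arrays it was 2 against 1, and with the scanner's laxer flag (positive and significant) it was 4 against 3. Over all 20660 named genes the counts were 824 against 419. They were 800 against 323 with 1 floor and 1071 against 819 with the laxer flag. Counts over all genes without single arrays are not given here. No test applies to these counts, since genes are not replicates.

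Among the LIM homeobox genes, Lhx2, which forms the limb and forebrain and can expand blood progenitors when forced on, stood out on 1 array. Its level was -6.39 on WT, -5.84 on RUNX1_mutant, -5.02 on CD45.1_in_double_mutant and -5.47 on CD45.1_in_RUNX1_mutant, and -2.51 on Ezh2_deleted, -6.77 on Double_mutant, -6.80 on Double_MDS and -6.31 on Double_MDS_ML. Only the Ezh2_deleted value was well above background, and the 3 arrays with both lesions were as dim as those with Ezh2 intact. Lhx9, a gonad and brain factor, was well above background on Double_mutant (-4.35) and Double_MDS (-4.33). It was dim on WT (-7.12), RUNX1_mutant (-6.09), CD45.1_in_RUNX1_mutant (-5.50), CD45.1_in_double_mutant (-4.80), Ezh2_deleted (-5.05) and Double_MDS_ML (-6.39), and both of its other probes were dim on every array. Both detected values lay above the floors of their own arrays. They lay under the floors of CD45.1_in_RUNX1_mutant (-3.48), RUNX1_mutant (-4.05), Ezh2_deleted (-4.30) and Double_MDS_ML (-4.29). Double_mutant and Double_MDS shared a slide with WT, where Lhx9 was dim. Lhx1, needed for the kidney and head, ran level at -4.20 on WT, -3.91 on RUNX1_mutant, -4.52 on CD45.1_in_double_mutant and -4.23 on CD45.1_in_RUNX1_mutant, against -3.93, -3.82, -3.63 and -3.87 on Ezh2_deleted, Double_mutant, Double_MDS and Double_MDS_ML. The last 4 and WT were well above background, and the whole range spanned less than 1 log2 unit.

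Foxa1, a pioneer factor of gut, liver and breast, was detected on 3 arrays, 2 of them with Ezh2 intact. Its level was -2.62 on RUNX1_mutant, -3.17 on CD45.1_in_double_mutant and -3.81 on Ezh2_deleted, all well above background. It was -7.52 on WT, -5.80 on CD45.1_in_RUNX1_mutant, -7.01 on Double_mutant, -7.02 on Double_MDS and -6.62 on Double_MDS_ML, all dim. The highest value therefore came from cells with Ezh2 intact, and the second from wild-type cells. All 3 arrays with Foxa1 detected shared a slide with CD45.1_in_RUNX1_mutant, where it was dim. It was dim on every array of the other slides. The part of the slide in this was not tested. Its relatives Foxa2, also of the endoderm, and Foxd3, of neural crest, were dim on all 8 arrays.

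Of the T-box genes, Eomes, a factor of the early embryo that also acts in natural killer (NK) and CD8 T cells, was the only one detected. It was well above background on CD45.1_in_double_mutant (-3.81), Ezh2_deleted (-3.64) and Double_MDS (-4.48), and dim on WT (-5.02), RUNX1_mutant (-5.37), CD45.1_in_RUNX1_mutant (-3.66), Double_mutant (-6.87) and Double_MDS_ML (-4.49). Its second probe was dim on all 8 arrays. Of 7 NK and T cell markers 4 or 5 were well above background on every array, Ncr1 and Cd8a on none, and their summed signal ran from 7.20 times the array's 75th percentile on Double_MDS_ML to 139 times on CD45.1_in_RUNX1_mutant. Their part in the Eomes signal was not tested. T (brachyury, the mesoderm factor), Tbx3 and Tbx5, of limb and heart, never reached even the laxer flag.

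Dlx3, known from skin, placenta and bone, was above the 75th percentile on every array. Its level was 1.25 on WT, 1.47 on RUNX1_mutant, 0.74 on CD45.1_in_double_mutant and 1.76 on CD45.1_in_RUNX1_mutant, and 1.59, 1.62, 1.85 and 0.83 on Ezh2_deleted, Double_mutant, Double_MDS and Double_MDS_ML. All 8 were well above background, and arrays with and without Ezh2 overlapped. Dlx5, a bone and face factor, was well above background on WT (-3.53), CD45.1_in_double_mutant (-2.63), Double_MDS (-3.17) and Double_MDS_ML (-3.48), and dim on RUNX1_mutant (-5.61), CD45.1_in_RUNX1_mutant (-4.29), Ezh2_deleted (-5.39) and Double_mutant (-4.43). Its highest value was that of wild-type competitor cells. Dlx1 and Dlx2, forebrain interneuron factors, were dim throughout.

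The Nkx genes pattern the neural tube, pancreas and heart. Nkx2-2 was well above background everywhere, at -3.27 on WT, -2.37 on RUNX1_mutant, -3.10 on CD45.1_in_double_mutant and -1.77 on CD45.1_in_RUNX1_mutant, and at -2.44, -3.28, -2.50 and -2.99 on Ezh2_deleted, Double_mutant, Double_MDS and Double_MDS_ML. The highest value was of wild-type cells on the dimmest array, and its other probe was dim on all 8. Nkx6-1, of insulin-producing beta cells, was well above background on WT (-4.08), Double_mutant (-4.32) and Double_MDS (-3.65), the 3 arrays of 1 slide, and dim on RUNX1_mutant (-5.87), CD45.1_in_RUNX1_mutant (-4.57), CD45.1_in_double_mutant (-4.60), Ezh2_deleted (-4.65) and Double_MDS_ML (-4.67). The part of the slide in this was not tested. Nkx2-5, the heart factor, was dim on all 8 though positive and significant on 7.

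Otx2, which specifies the front of the head, was well above background on Double_MDS alone. It was -3.41 there, against -7.03 on WT, -5.05 on RUNX1_mutant, -4.65 on CD45.1_in_RUNX1_mutant, -5.82 on CD45.1_in_double_mutant, -6.23 on Ezh2_deleted, -6.63 on Double_mutant and -4.39 on Double_MDS_ML. Six2, of kidney progenitors, and Irx3, a patterning factor, were dim on every array. Pax2, of the kidney, was likewise detected on Double_MDS alone, at -3.81, against -5.37 on WT, -4.29 on RUNX1_mutant, -4.29 on CD45.1_in_RUNX1_mutant, -4.89 on CD45.1_in_double_mutant, -4.73 on Ezh2_deleted, -4.54 on Double_mutant and -6.37 on Double_MDS_ML. For both genes the other 7 arrays were dim. The other Pax2 probe was dim on every array. Its lowest level was on Double_MDS, at -6.74, and its highest on CD45.1_in_double_mutant, at -4.84. Pax3, of neural crest and muscle, was at -4.12 on WT, -4.24 on RUNX1_mutant, -3.29 on CD45.1_in_RUNX1_mutant, -4.66 on CD45.1_in_double_mutant, and -4.16, -4.13, -4.23 and -4.28 on Ezh2_deleted, Double_mutant, Double_MDS and Double_MDS_ML. The flag was set on WT, Double_mutant and Double_MDS, again the 3 arrays of 1 slide. The highest Pax3 value, on the dimmest array, was not well above background. The other Pax3 probe was dim on every array. Pax6, of the eye, and Pax7, of muscle stem cells, were dim.

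Sox1, a neural progenitor factor, was well above background on all arrays, at -2.07 on WT, -2.99 on RUNX1_mutant, -2.86 on CD45.1_in_double_mutant and -2.14 on CD45.1_in_RUNX1_mutant, and at -3.05, -1.42, -2.37 and -3.49 on Ezh2_deleted, Double_mutant, Double_MDS and Double_MDS_ML. The deleted arrays held both the highest and the lowest value. Sox2, the pluripotency factor, Sox17, of endoderm and fetal blood stem cells, Gata4 and Gata6, of heart and endoderm, and the neural factors Olig2, Neurog2 and Neurod1 were dim on all 8 arrays, as was Wt1, of the kidney and of many leukemias. Over the 20 genes never well above background, levels ran from -7.52 to -3.28, and 17 had their highest value on CD45.1_in_RUNX1_mutant, where the 75th percentile signal was lowest (186 units, against 474 on WT). Dim levels of different arrays therefore have no order. Of the 20, 14 were positive and significant on at least 1 array by the laxer flag, Olig2 on all 8, and 6 never were.

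Insm1, a zinc finger repressor of neuroendocrine cells, was the member that differed most between arrays. Its level was -3.07 on WT, -1.77 on RUNX1_mutant, -1.22 on CD45.1_in_double_mutant and -2.48 on CD45.1_in_RUNX1_mutant, and -1.09 on Ezh2_deleted, -4.55 on Double_mutant, 5.45 on Double_MDS and -1.26 on Double_MDS_ML, all well above background. The Double_MDS value stood 6.54 log2 units over the next array, and the Double_mutant value was the lowest of all. Among the 14764 genes ranked by the margin of their highest array over the next, Insm1 was number 4, and it was number 1 of the 2422 genes highest on Double_MDS, ahead of Kcns3 (6.27) and Ackr1 (5.93). The array holds 1 mouse. Cells of the second moribund mouse lay within the range of the month 4 arrays.

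**Figure D3:**
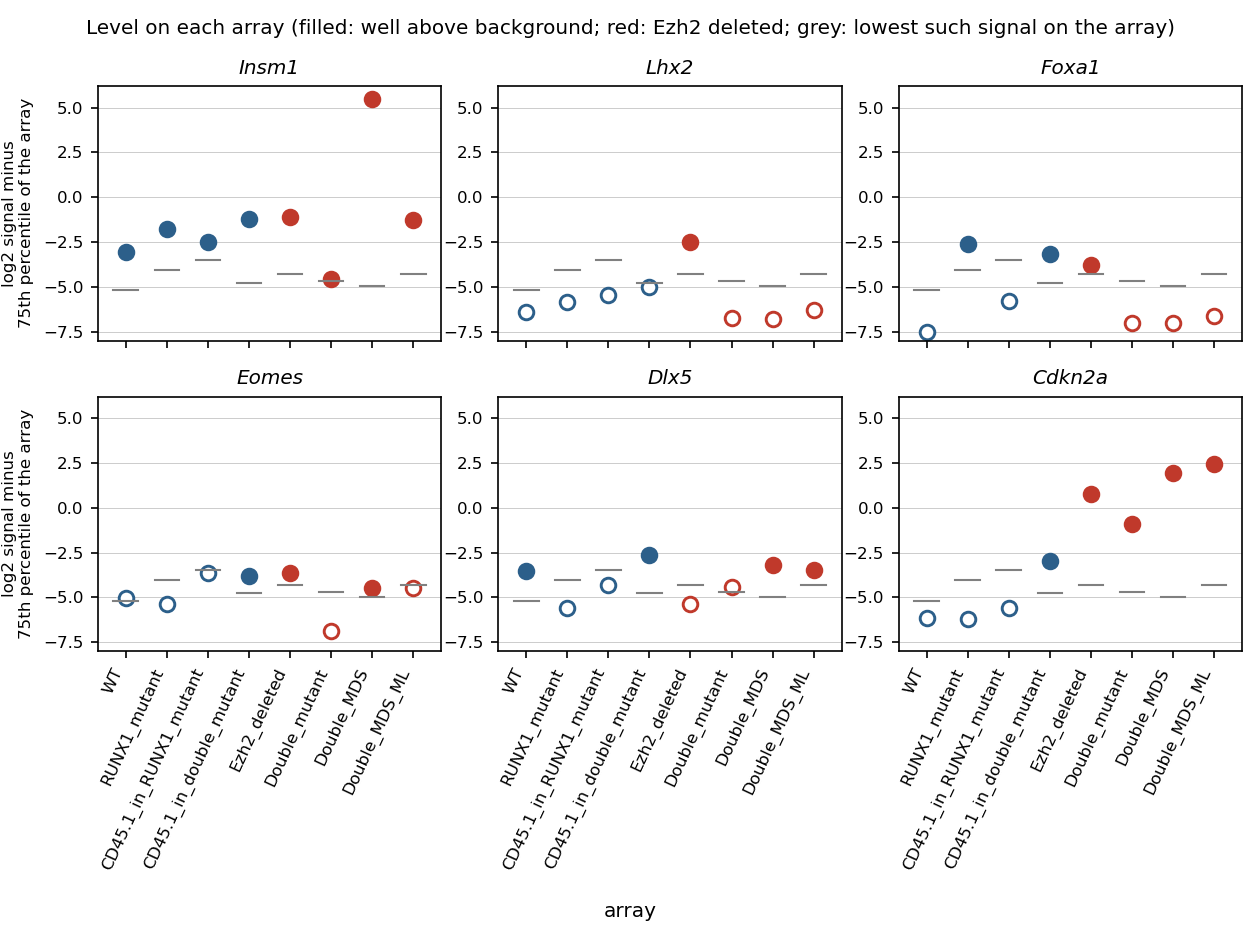
Level of selected genes (vertical axis, log2 relative to each array's 75th percentile) on each of the 8 arrays (horizontal axis), red where Ezh2 was deleted and filled where well above background. The grey marks give the lowest signal well above background on each array, and Insm1 on Double_MDS, at 5.45, is the highest point.

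Single arrays were then compared in pairs. A difference was called at 2-fold or more. A dim value under the lowest level well above background on its array was raised to that level, so that the fold is a lower bound. A dim value above that level was used as measured. A pair of arrays compares 2 libraries, with no replicate check and no p-value. In Ezh2_deleted against WT, 11 members were measured. Insm1 was 3.93-fold higher, Lhx2 at least 6.44-fold, Foxa1 at least 2.62-fold and Eomes 2.61-fold, and 0 were lower. The Eomes value on WT was dim and used as measured. Of all genes measured in that pair, 7.81% were at least 2-fold higher and 3.82% lower. With normexp background correction 2 of the 4 calls were left. Over all genes it gave 598 higher and 270 lower, in place of 1100 and 538. The Lhx2 difference was 1.18 log2 in place of 2.69, and those of Foxa1 and Eomes were 0.76 and 0.68. With the probes of a gene averaged the Eomes difference was 0.60. Quantile normalization gave 4 members higher and 2 lower, and dim values used as measured gave 4 higher and 1 lower. Over all genes these gave 982 higher and 660 lower, and 1103 higher and 771 lower. In this pair the summed signal of neutrophil markers was 413 times the 75th percentile on Ezh2_deleted and 28.6 on WT, and that of B cell markers 283 and 17.3. Their part was not tested.

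The other deletion contrast ran the opposite way for Insm1 and Foxa1. It also crossed slides in the opposite direction. In Double_mutant against RUNX1_mutant, of 9 members measured, Sox1 was 2.96-fold higher, Insm1 6.88-fold lower and Foxa1 at least 4.18-fold lower, beside 8.08% higher and 8.47% lower over all genes. Under normexp 1 call was left, and with dim values used as measured there were 5. Over all genes normexp gave 771 higher and 606 lower, in place of 1104 and 1157. Dim values as measured gave 1414 and 1192. The Sox1 difference, 1.57 log2, was 0.21 when its 2 probes were averaged.

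Pairs without any Ezh2 deletion also set Insm1, Foxa1 and Eomes apart. In CD45.1_in_double_mutant against WT, both wild-type cells, Insm1 was 3.59-fold higher, Foxa1 at least 4.08-fold and Eomes 2.32-fold (dim on WT, used as measured). These were 3 of 10 measured, where 4.57% of all genes were higher and 2.27% lower. In RUNX1_mutant against WT, Insm1 was 2.45-fold and Foxa1 at least 5.97-fold higher, 2 of 9, where 8.57% of all genes were higher and 5.76% lower. CD45.1_in_RUNX1_mutant against WT gave 1 of 8, Nkx2-2 at 2.84-fold higher, where 11.3% were higher and 6.64% lower. Between the 2 wild-type competitor arrays, CD45.1_in_double_mutant showed Insm1 2.39-fold higher, Nkx2-2 2.52-fold lower and Dlx3 2.03-fold lower, 3 of 7, where 6.78% were higher and 9.37% lower. Scaling mattered in both pairs with the dimmest array: higher calls made up 42.0% of all calls between the competitor arrays and 60.0% after quantile normalization, and 63.0% and 46.9% for CD45.1_in_RUNX1_mutant against WT. Normexp left 0 member calls between the competitor arrays and 1 in CD45.1_in_double_mutant against WT. Over all genes it gave 487 higher and 724 lower between the competitor arrays, in place of 898 and 1242. In CD45.1_in_double_mutant against WT it gave 297 and 89, in place of 639 and 317. The pairs against WT and the Ezh2_deleted pair share the WT array, so a low value on it moves them together. In each of them the array set against WT was on a different slide. Lhx2 was dim on WT, RUNX1_mutant and both CD45.1 arrays and was not measured in these pairs.

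RUNX1S291fs was also compared within the deletion. In Double_mutant against Ezh2_deleted, Sox1 was 3.09-fold higher, Insm1 11.0-fold lower, Lhx2 at least 4.51-fold lower and Eomes at least 2.06-fold lower, 4 of 11 measured, where 10.9% of all genes were higher and 11% lower. Normexp left Insm1 alone, with Lhx2 at -0.76, Eomes at -0.46 and Sox1 at 0.83 log2. Over all genes it gave 1063 higher and 825 lower, in place of 1521 and 1536. With probe means Sox1 was at 0.04 and Eomes at -0.08. In Double_mutant against WT, Insm1 alone of 9 passed, 2.80-fold lower, where 10.6% were higher and 7.9% lower. After normexp the Insm1 difference there was -0.14 log2 and no member passed. Over all genes 982 were then higher and 566 lower, in place of 1494 and 1117.

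Disease stage was read by setting the single moribund mice against the month 4 pool with both lesions; both pairs share the Double_mutant array. In Double_MDS, of 12 members measured, Insm1 was 1028-fold higher (10.01 log2) and Otx2 at least 2.41-fold higher. Dlx5, dim on Double_mutant and used as measured there, was 2.41-fold higher. With 0 members lower, 10.6% of all genes were higher and 20.3% lower. Normexp left Insm1 alone, at 7.54 log2. Over all genes it gave 906 higher and 2089 lower, in place of 1494 and 2856. In Double_MDS_ML, of 9 measured, Insm1 was 9.81-fold higher and Sox1 4.20-fold lower, where 9.78% were higher and 15.2% lower. With its probes averaged the Sox1 difference was -0.74 log2. On both moribund arrays Ly6a (0.53 and 1.18, against 3.17 to 4.14 elsewhere), Flt3 (-2.34 and -1.28, against 3.23 to 5.90 elsewhere) and Cd34 (4.25 and 3.76, against 7.54 to 8.18) were lower, while Kit was not. For Ly6a the limma stage effect was -2.26 log2 (SE 0.38, adjusted p = 0.0367), which missed the threshold without Double_mutant (0.353) and without 5 other arrays in turn. The summed signal of 5 mast cell markers was 381 times the 75th percentile on Double_MDS, 115 on Double_MDS_ML and 171 on Double_mutant. That of 6 neutrophil markers was 814, 3.19 and 1433. Most of the mast cell sum on both moribund arrays was Cpa3 (8.47 on Double_MDS and 6.85 on Double_MDS_ML). On Double_MDS_ML Mcpt4 and Cma1 were dim, and the mean level of the 5 mast cell markers was -2.07, against -2.40 on WT. The part of mast cell and neutrophil RNA in these differences was not tested.

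A model over all 8 arrays gave the only tests with error. It was fitted with limma to log2 levels, with terms for Ezh2 deletion (4 arrays against 4), RUNX1S291fs (4 against 4) and moribund stage (2 against 6), over the 13555 genes that the scanner marked well above background on 3 or more arrays, and p-values were adjusted by Benjamini-Hochberg. The 10 members that met that filter were Lhx1, Foxa1, Eomes, Dlx3, Dlx5, Nkx2-2, Nkx6-1, Pax3, Sox1 and Insm1. Lhx2, Lhx9, Otx2 and Pax2 did not. For Ezh2 deletion, limma called 0 of the 10 (0% of all genes were called), and 0 had an unadjusted p under 0.05, as against 321 of the 13555. Fitted effects ran from -0.74 log2 (SE 1.55, Foxa1) to 0.48 (SE 0.50, Nkx6-1), with a median of -0.12 over members and -0.04 over all genes, and every adjusted p was 1.00. The Insm1 effect was -0.41 (SE 1.82).

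For RUNX1S291fs, limma again called 0 of the 10 members, where 0.0148% of all genes were called. Eomes had the only unadjusted p under 0.05, with an effect of -2.02 log2 (SE 0.57, adjusted p = 0.408). It was dim on 3 of the 4 carrier arrays and on 2 of the 4 others. For the moribund stage, 1.84% of all genes were called (0.273% higher and 1.57% lower) and 0 members. An unadjusted p under 0.05 was found for 2 members and for 1858 of the 13555 genes. The 250 calls over all genes fell to 0 without Double_mutant, 70 without WT, 81 without CD45.1_in_double_mutant and 75 with slide as a block, and were 381 without Double_MDS_ML and 157 without Double_MDS. Insm1 was 5.47 log2 higher (SE 2.23, limma adjusted p = 0.341), Eomes 1.78 (SE 0.70, adjusted p = 0.319) and Dlx5 2.04 (SE 0.90, adjusted p = 0.386). The Insm1 effect passed without Double_MDS_ML (8.82, limma adjusted p = 0.0327) and with the slide as a block (9.62, limma adjusted p = 0.0466). In both fits Double_MDS is in effect the single moribund array, and it is assumed to vary like the other groups.

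Whether deletion acted differently with and without RUNX1S291fs was tested by adding the product of both terms. At month 4, WT and Double_mutant shared a slide, and Ezh2_deleted and RUNX1_mutant another. Among these arrays the product and the slide cannot be told apart. With limma 0 of 10 members passed, as did 0 of 13554 genes, and 3 members had an unadjusted p under 0.05, as did 887 genes in all. The Foxa1 product was -6.08 log2 (SE 2.34, adjusted p = 0.756), that of Dlx5 3.08 (SE 1.03, adjusted p = 0.719) and that of Sox1 2.26 (SE 0.92, adjusted p = 0.763). The fit used dim levels as measured. Foxa1 was dim on WT and Double_mutant, and Dlx5 on Ezh2_deleted, RUNX1_mutant and Double_mutant.

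**Figure D4:**
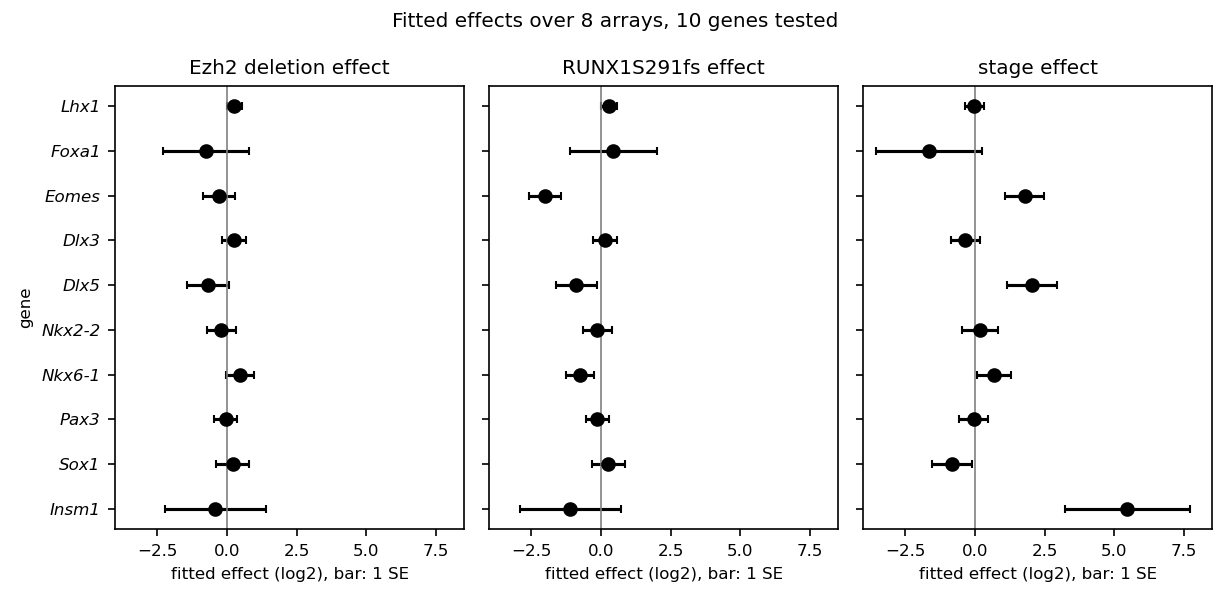
Fitted effects (horizontal axis, log2, bars 1 SE) of Ezh2 deletion, RUNX1S291fs and moribund stage for the 10 genes tested (vertical axis). No effect passed the threshold, and the widest bars are those of Insm1 and Foxa1.

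Family members outside the list gave a second view. Of 86 related genes with a probe, 46 were well above background on 0 arrays and 18 on all 8, the latter including blood factors such as Gata1, Gata2 and Gata3. The pattern of the deleted arrays alone held for 8 (9.30%), Foxc1, Tbx2, Tbr1, Nkx6-3, Pax5, Pax8, Neurog1 and Insm2, and the reverse for 6 (6.98%), Foxa3, Tbx1, Tbx4, Dlx6, Irx6 and Sox14. Dlx6, which neighbours Dlx5, reached -1.29 on RUNX1_mutant alone, with Ezh2 intact. Pax5, the B cell identity factor, was detected on Ezh2_deleted alone (-3.26), where 6 of 6 B cell markers were well above background with a summed signal of 283 times the 75th percentile, against 3.85 to 46.2 on the other arrays. Lhx2 was detected on that same array, and the part of B-lineage RNA in its signal was not tested. Of 26 related genes tested with limma, 0 were called for Ezh2 deletion (1 had an unadjusted p under 0.05). For the moribund stage Sox6, a factor of red cell maturation, was higher by 5.50 log2 (SE 0.70, adjusted p = 0.0162), and Nkx2-3 fell by 5.07 (SE 0.72, adjusted p = 0.0220). Neither passed without Double_mutant (limma adjusted p = 0.218 and 0.119), without WT (0.0507 and 0.0609) or with slide as a block (0.1002 and 0.127). Sox6 also missed under quantile normalization (0.0635), and Nkx2-3 without Double_MDS (0.0698) and without Double_MDS_ML (0.0506).

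The Polycomb machinery itself was measured on the same arrays. Ezh2 read 3.46 on WT, 3.40 on RUNX1_mutant, 3.85 on CD45.1_in_double_mutant and 4.01 on CD45.1_in_RUNX1_mutant, and 3.51, 3.42, 3.29 and 3.10 on Ezh2_deleted, Double_mutant, Double_MDS and Double_MDS_ML. The place of this probe relative to the deleted exons was not given in the sources used here, so it does not check the deletion. Ezh1 lay between 3.45 and 4.77, the scaffold subunit Eed between 3.88 and 5.02, and the histone-binding subunits Rbbp4 and Rbbp7 were well above background on all 8 arrays, as were the PRC1 genes Phc2 and Pcgf5. Of 11 PRC2 genes, 17 PRC1 genes and 2 H3K27 demethylase genes tested, limma called 0 for Ezh2 deletion, and 0, 1 and 1 had an unadjusted p under 0.05. The Ink4 genes Cdkn2a and Cdkn2b, cell cycle inhibitors and a classic Polycomb target locus, give a yardstick. Cdkn2a read 0.77, -0.92, 1.92 and 2.41 on Ezh2_deleted, Double_mutant, Double_MDS and Double_MDS_ML, and -6.14, -6.19, -5.60 and -2.995 on WT, RUNX1_mutant, CD45.1_in_RUNX1_mutant and CD45.1_in_double_mutant. The 4 deleted arrays all lay above the others, although the limma effect of 5.52 log2 (SE 0.85) had an adjusted p of 0.696. Of the 10 members that met the filter, 0 had every deleted array above every other, where 1.02% of all genes that met it did. At that share a count of 0 among 10 does not set the members apart.

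The arrays differed in other ways that touch these values. Kit and Ly6a (Sca-1), which define the sort, were well above background on all 8. Of 5 endothelial markers 2 to 4 were well above background on each array (summed signal 6.59 to 21.3 times the 75th percentile), with Kdr and Pecam1 on all 8 and Cdh5 on none. Of 6 stromal markers 3 to 5 were (summed 6.47 to 16.7), with Lepr, Pdgfrb and Col1a2 on all 8 and Pdgfra on none. Xist was dim and the Y-linked Eif2s3y bright on Ezh2_deleted and Double_MDS_ML, and the reverse held on the other 6, so Ezh2_deleted and WT differed in sex as well. WT, Double_mutant and Double_MDS shared 1 slide. Both CD45.1 arrays, RUNX1_mutant and Ezh2_deleted shared another, and Double_MDS_ML had its own. Ezh2_deleted against WT and Double_mutant against RUNX1_mutant therefore both cross slides, in opposite directions. The pairs of RUNX1_mutant and of each CD45.1 array with WT cross slides too.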

How the data were processed

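LSK cells were sorted and 20 ng of total RNA was labelled with Cy3, per the labels' protocols. The deposited scanner files hold, per the file headers, processed fluorescence intensity from Agilent Feature Extraction 10.7.1.1 (design 028005), background-subtracted within each array. The series table deposited by the authors holds linear signal, which matched the scanner values divided by 1 factor per array, and served as an alternative. The sources used here do not name its scaling step. From the deposited intensity, log2 levels were computed here as log2 signal minus the array's 75th percentile. Control spots and outlier spots were left out, and spots of a probe averaged. Of 55681 probes, 27235 were named through transcript accessions in the RefSeq table of GRCm38.p6, used for names only. Each gene was read from its probe with the highest mean. Of the members, 11 had over 1 probe.

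Every array was compared by scanner flags, pairs at 2-fold, and a fit with limma 3.58.1 (R 4.3.3) at an adjusted p threshold of 0.05, tested on simulated data. With 8 arrays the fit had 4 residual degrees of freedom. The number of arrays limits the precision, and nothing says how far pooled mice vary. Alternatives were the laxer flag, normexp (offset 50), quantile normalization, the series table, probe means, measured dim values, other filters, slide as a block, no stage term, month 4 arrays alone and each array left out. A single level floor for all arrays, the pattern without each array, and recipients as a random block were chosen after seeing the data. The members and lists were chosen with earlier results of these data known. Every member could be named; from other lists, genes called, those with the Ezh2-deleted pattern, those with the reverse pattern and otherwise those with the highest mean level were named. A result for 1 gene is not reported here.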

Additional observations from a re-analysis of the deposited data

Results flagged for a closer look

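A second Sox1 probe, which the comparisons do not use, was well above background on Ezh2_deleted, at -3.60, and on Double_MDS, at -3.96. On the other Ezh2-deleted arrays it was dim, at -5.14 on Double_mutant, the lowest of the 8 values, and at -4.55 on Double_MDS_ML. It was not well above background on any of the 4 arrays with Ezh2 intact, where it lay between -4.74 and -3.94. The Sox1 probe used was well above background on all 8 arrays.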

How the results depend on the processing

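No paired analysis was possible because each group has 1 array, so the groups share only 1 replicate number. The CD45.1+ cells came from recipients of the RUNX1_mutant and Double_mutant grafts, and the sources used here do not say whether these were the same mice as those of the CD45.2+ pools. With recipients of a graft as a random block, chosen after seeing the data (estimated correlation -0.77, from 2 pairs), no call by limma on a member changed for Ezh2 deletion, RUNX1S291fs or stage. With the laxer flag, members detected numbered 19 on WT, 19 on RUNX1_mutant, 15 on CD45.1_in_RUNX1_mutant and 18 on CD45.1_in_double_mutant. With Ezh2 deleted they numbered 20 on Ezh2_deleted, 12 on Double_mutant, 18 on Double_MDS and 15 on Double_MDS_ML. Members detected on at least 1 array numbered 28, and the reverse pattern held for 3. With a single floor of -3.48 they numbered 4 on WT, 5 on Ezh2_deleted, 3 on Double_mutant, 6 on Double_MDS and 8 on at least 1 array, with 2 for the Ezh2-deleted pattern and 1 for the reverse. Leaving out each array gave 2 to 7 and 0 to 1 for these patterns. Over all named genes they held for 1071 and 819 with the laxer flag, and for 800 and 323 with the single floor. Members at least 2-fold apart under normexp numbered 2 in Ezh2_deleted against WT, 1 in Double_mutant against RUNX1_mutant, 1 in RUNX1_mutant against WT, 1 in Double_mutant against Ezh2_deleted, 0 in Double_mutant against WT, 1 in Double_MDS against Double_mutant, 0 between the competitor arrays and 1 in CD45.1_in_double_mutant against WT, where higher calls made up 76.9% of all calls against 66.8%. With dim values as measured they numbered 5 in Double_mutant against RUNX1_mutant, 4 in RUNX1_mutant against WT, 2 in Double_mutant against WT and 5 between the competitor arrays. With probe means they numbered 2 in Double_mutant against Ezh2_deleted and 1 in Double_MDS_ML against Double_mutant. Over all genes, normexp gave fewer higher and fewer lower calls in every pair. Members called by limma for stage numbered 1 with slide as a block and 0 to 1 with each array left out. The Insm1 Ezh2 effect turned to 1.41 without the stage term and ran from -2.78 to 1.17 with each array left out, that of Foxa1 from -4.39 to 1.69, and that of Nkx6-1 from -0.23 to 1.55, with -0.076 under normexp. The turns came without RUNX1_mutant or without Double_mutant. The cause was not tested. In all, 117 recomputed counts of members stayed within 1.5 times. The Insm1 stage effect ranged from 2.11 to 9.62 (limma adjusted p 0.0327 to 0.984), its lowest without Double_MDS, and that of Eomes for RUNX1S291fs from -3.23 to -0.19 (limma adjusted p 0.269 to 1.00). For members under the floor of their array, signal over background limits every fold to a bound.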

Other observations

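Genes that go with Insm1 in neuroendocrine cells were looked up after its value on Double_MDS had been seen. Chgb, Scg2, St18, Dbh, Pcsk1 and Neurod1 were well above background on 0 of 8 arrays. Chga, a protein of secretory granules, was -4.14 on Double_MDS and -3.22 on Double_MDS_ML, against -1.93 to 2.58 on the other arrays. The synaptic vesicle gene Syp stayed between 1.33 and 1.95. The blood zinc finger repressors Gfi1 and Gfi1b, which share a repressor domain type with Insm1, were at -0.86 and 4.50 on Double_MDS. Gfi1 was at -1.88 on Double_MDS_ML and between 2.19 and 5.72 on the month 4 arrays, and Gfi1b was at 4.77 and between 0.79 and 3.01.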
